A study of Mus musculus with 12 samples.

Results

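Intron-centred ac4C peaks are stretches of the mouse genome where RNA carrying N4-acetylcytidine (ac4C) was enriched and whose midpoint lay inside an intron and in no exon or untranslated region of any gene. They were picked from the authors' annotation of each peak's centre, with no measured value involved: at least 1 overlapping gene had an intron there and none had an exon or UTR. By this rule 244 of 4753 peaks in 6 lists, 5.13%, were intron-centred. Another 216 of the 460 peaks with an intron at the centre also had an exon or UTR of another gene there and were left out.

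The cells were peritoneal macrophages of the mouse, cultured with interferon-γ (IFN-γ) for 0, 24 or 48 h. Pull-down RNA bound for its ac4C was sequenced beside total RNA, with 2 samples in each of 6 groups and 12 samples in all. The 0 h group carried the IFN-γ label with an exposure of 0 h, and no group without IFN-γ was sampled at 24 or 48 h, so exposure and elapsed time cannot be told apart. The labels give no genotype, strain, sex or age for the mice. The values below come from 6 peak lists, 2 per time, which state their hour but not their sample. The numbers 1 and 2 given to the lists of a time carry no order and no pairing. Whether samples were grown or taken separately is not stated, so the spread between lists may be technical and the p-values measure only that spread.

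ac4C is made by the acetyltransferase NAT10, best known for modifying ribosomal and transfer RNA, and has also been mapped on messenger RNA. Introns are the segments of a pre-mRNA that splicing removes, so sequence inside an intron is found mainly in unspliced nuclear RNA, in retained introns, or in small RNAs that are processed out of introns. IFN-γ is a cytokine that activates macrophages. In a peak list, an intron-centred peak can also be a narrow peak over an exon boundary whose midpoint falls just outside the exon, which is why the annotation at both ends of each peak is described below.

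Among the small RNAs, 1 intron-centred peak touched a microRNA, and its products are the only sequences shown here, because a microRNA is a small RNA that can be cut from an intron. The peak lay in Acly, which encodes the ATP citrate lyase that makes cytosolic acetyl-CoA, at chr11:100369009-100369238 (GRCm39), with the Mir7116 locus at its edge. It was found in 0 h list 2 only, at a fold enrichment of 3.1, a −log10 p of 3.43 and a q of 1. The mature sequences below are from RefSeq (table of build GRCm38.p6), 5′ to 3′, with the seed, bases 2 to 8, in capitals.
mmu-miR-7116-5p: uGAAGACAucaggaaaaaaaa
mmu-miR-7116-3p: uUUUUUUCcuuugccuucucag
The 2 arms have different seeds. The pull-down signal at this peak cannot be assigned to the microRNA, since the peak also covered an exon of Acly.

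The depth of the lists differed. Relative input depth, recovered from the authors' fold and p, ran from 100% in 0 h list 1 to 44.6% in 48 h list 2, and was 91.4% in 0 h list 2, 73.7% and 80.8% at 24 h and 57.2% in 48 h list 1. Relative pull-down depth lay between 68.6% and 100%. Of the macrophage markers, 3 of 8 had a peak (Itgam, Lyz2 and Ctss), 1 of 4 mesothelial markers did (Wt1), and none of the B cell, T cell, mast cell or neutrophil markers did. No marker of any of these cell types held an intron-centred peak, where 171 of the 2071 genes with any peak did.

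Intron-centred peaks were found at all times, in numbers that were lowest in the shallowest list. The 0 h lists held 56 and 43 of them among 1151 and 946 peaks. At 24 h there were 42 and 44 among 725 and 646 peaks, and at 48 h there were 39 and 20 among 674 and 611 peaks. The mean number was 49.5 ± 9.19 (SD, n = 2 lists) at 0 h, 43.0 ± 1.41 at 24 h and 29.5 ± 13.44 at 48 h. Both 48 h lists were below both 0 h lists, while 24 h list 2 lay between the 0 h lists.

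As a share of a list, intron-centred peaks made up 4.87% (exact 95% binomial interval 3.7 to 6.27%) and 4.55% (3.31 to 6.07%) at 0 h. The share was 5.79% (4.21 to 7.75%) and 6.81% (4.99 to 9.04%) at 24 h. At 48 h it was 5.79% (4.15 to 7.83%) and 3.27% (2.01 to 5.01%). The intervals cover counting error only, and those of every pair of lists overlapped, by a narrow margin for 24 h list 2 and 48 h list 2. The mean share was 4.71 ± 0.23% at 0 h, 6.3 ± 0.72% at 24 h and 4.53 ± 1.78% at 48 h (SD, n = 2 lists each).

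No comparison of times passed a test. The log2 ratio of mean numbers was −0.20 for 24 h against 0 h (two-sided exact permutation p = 0.667), −0.75 for 48 h against 0 h (p = 0.333) and −0.54 for 48 h against 24 h (exact p = 0.333). Against 0 h, both later times together gave −0.45 (exact permutation p = 0.333). The share moved by 1.60 percentage points from 0 to 24 h (exact p = 0.333), by −0.176 from 0 to 48 h (exact p = 1.0) and by −1.77 from 24 to 48 h (exact p = 0.333). Without 48 h list 2 the difference in share between 0 and 48 h turned to 1.08 points. With 2 lists against 2, the smallest p the design allows is 0.33, and with 2 against 4 it is 0.067. A two-sided exact Jonckheere-Terpstra trend test, whose smallest p over 90 arrangements is 0.022, gave p = 0.067 for the number and p = 1.0 for the share. Over these 10 comparisons the lowest Benjamini-Hochberg adjusted value of the exact tests was 0.556.

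**Figure D1:**
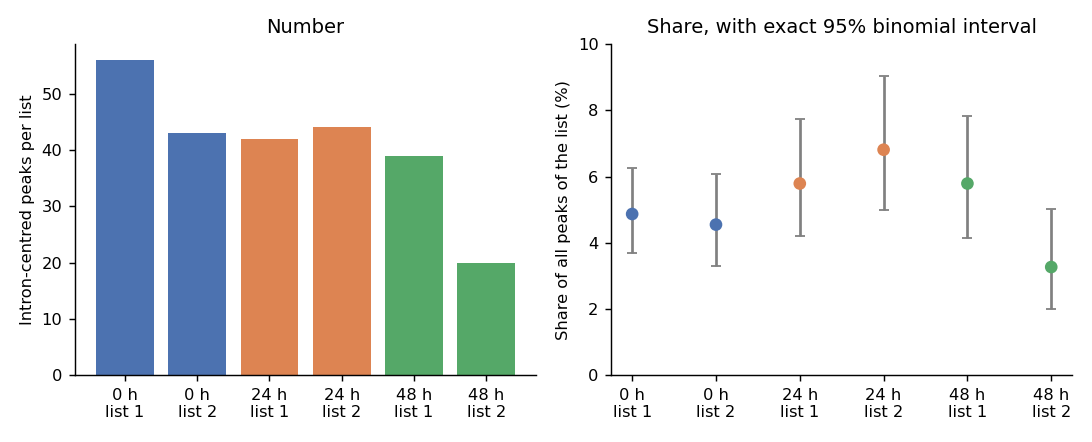
Intron-centred peaks in each of the 6 peak lists, as a number (bars, left) and as a percentage of all peaks of the list (points with exact 95% binomial intervals, right), coloured by hours with IFN-γ. The number falls from 56 in 0 h list 1 to 20 in 48 h list 2, while the share lies between 3.27% and 6.81%.

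When the lists were thinned to the input coverage of the shallowest one, 37, 30, 25, 21, 30 and 20 intron-centred peaks remained, in the order of 0 h, 24 h and 48 h lists. The shares were then 4.48% and 4.15% at 0 h, 4.38% and 4.83% at 24 h, then 5.12% and 3.27% at 48 h. The mean number after matching was 33.5 ± 4.95 at 0 h, 23 ± 2.83 at 24 h and 25.0 ± 7.07 at 48 h (SD, n = 2 lists), so the direction between 24 and 48 h turned, and the share at 24 h was 4.61 ± 0.32% instead of 6.3%.

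The peaks fell into 4 layouts by what lay at their ends. In 95 (38.9%) the start, centre and end lay in the same intron. In 88 (36.1%) an exon or UTR of the host gene lay at an edge, and in 58 (23.8%) the start and end lay in different introns or on either side of an exon, so that the peak enclosed an exon that its centre missed. The other 3 (1.2%) had an exon of another gene at an edge. In all, 149 of the 244 intron-centred peaks (61.1%) touched or held an exon.

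Pooled over the lists, peaks within the same intron throughout were wider and better covered than those that reached an exon. Their median width was 282 bases, against 240 for peaks with an exon at an edge and 223 for peaks that enclosed one. Their summits held a median of 38 pull-down fragments, against 22 and 19.5, and a median input coverage of 3.0 fragments, against 1.08 and 1.0. In 24 h list 1 alone, however, median input coverage was 1.75, against 1.33 and 2.0. The pooled median fold enrichment was 3.03, 3.35 and 3.21 in the 3 layouts, and single lists differed. It was 3.66, 3.33 and 3.44 in 0 h list 1. In 48 h list 1 it was 3.31, 4.2 and 3.28, and in 48 h list 2 it was 2.89, 3.92 and 3.48. Of the peaks that enclosed an exon, 45 of 58 (77.6%) had the smallest width of their list, between 208 and 229 bases, compared with 14 of 95 (14.7%) of those in the same intron throughout. These layouts were compared by description only.

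By the authors' q, 83 of the 244 intron-centred peaks (34.0%) were at 0.05 or less, where 43.8% of all peaks were. By layout the share was 45.3% (43 peaks) within the same intron, 30 peaks (34.1%) with an exon at an edge and 9 peaks (15.5%) with an exon enclosed. A q of 1 was given to 115 intron-centred peaks (47.1%). The layout within the same intron was therefore close to the share of all peaks, and the other layouts were below it.

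Peaks within the same intron numbered 28 and 19 at 0 h, 13 and 13 at 24 h, then 14 and 8 at 48 h. Their share of the intron-centred peaks was 47.1 ± 4.1% at 0 h, 30.25 ± 1.06% at 24 h and 37.95 ± 2.9% at 48 h (SD, n = 2 lists each). The 0 h lists, at 50% and 44.2%, were both above the 4 later lists, which ranged from 29.5% to 40.0%. This split was noticed after the layouts had been counted, input depth was also higher in both 0 h lists, and the part of depth in it was not tested.

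**Figure D2:**
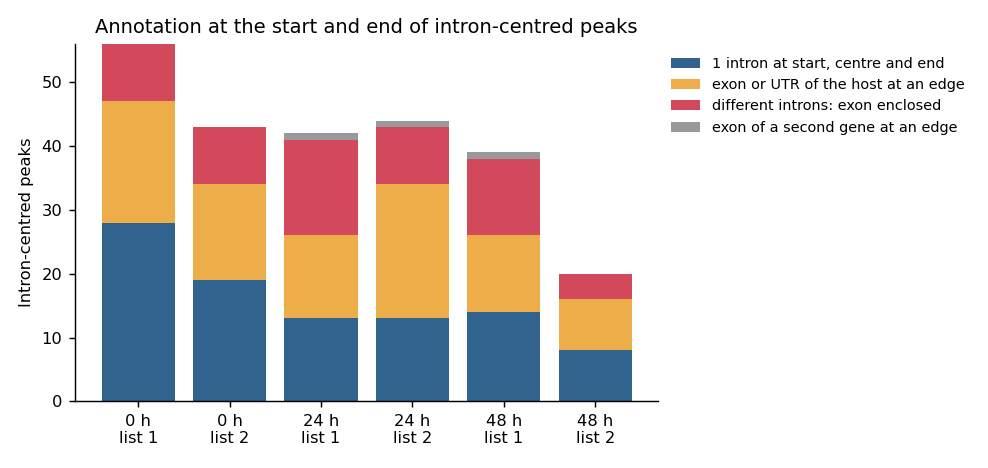
Number of intron-centred peaks in each list, stacked by the annotation at their start and end (colours). Peaks with the same intron at start, centre and end number 28 and 19 at 0 h and 8 to 14 in the 4 later lists.

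Within each list, intron-centred peaks were set against all other peaks of that list. They had fewer pull-down fragments at the summit, with a mean of list medians of 24.75 against 48.25, a difference of −23.5 ± 3.10 (SD, n = 6 lists). This was lower in 6 of 6 lists (two-sided exact sign-flip permutation p = 0.031). Input coverage was also lower in 6 of 6 lists, at 1.64 against 4.42 fragments, a difference of −2.78 ± 0.704 (SD; exact p = 0.031). With 6 lists, 0.031 is the smallest p this test can give. Intron-centred peaks thus rested on fewer fragments in both libraries.

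The median fold enrichment was slightly higher for intron-centred peaks, at 3.27 against 3.09, a difference of 0.182 ± 0.157 (SD, n = 6 lists; higher in 6 of 6; exact sign-flip p = 0.031). Among peaks at q of 0.05 or less the fold difference was 0.366 (exact p = 0.156), among those at a fold of 4 or more 0.177 (exact p = 0.719), and without peaks on another gene 0.205 (exact p = 0.062). The share at q of 0.05 or less was lower, 31.7% against 42.9%, a difference of −11.2 ± 6.41 percentage points (lower in 6 of 6 lists; exact p = 0.031), and −10.6 points among peaks at a fold of 4 or more (exact p = 0.188). In single lists 25, 20, 12, 11, 12 and 3 intron-centred peaks passed, which was 44.6% and 46.5% at 0 h, 28.6% and 25.0% at 24 h, then 30.8% and 15% at 48 h. Of all peaks, 52.0% and 49.4% passed at 0 h, 38.9% and 36.4% at 24 h, then 40.9% and 36.7% at 48 h. In all 6 lists the intron-centred peaks were below all peaks by this measure.

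Fewer intron-centred peaks recurred, meaning that they overlapped a peak of at least 1 other list by 1 base or more. The share was 49.2% against 63.8%, a difference of −14.6 ± 9.10 percentage points (SD, n = 6 lists; lower in 6 of 6; exact sign-flip p = 0.031). At matched input coverage the difference was −10.4 points (exact p = 0.094), and among peaks at q of 0.05 or less it was −10.9 points (exact p = 0.156). Among peaks at a fold of 4 or more it was −3.67 points (exact p = 0.562). Width was lower in 5 of 6 lists, at 241 against 259 bases (exact p = 0.094). The share that touched more than 1 gene was 7.22% against 7.84% (exact p = 0.75). Over these 7 comparisons the Benjamini-Hochberg adjusted value was 0.0437 for each of the 5 exact tests at 0.031, 0.109 for width and 0.75 for the overlap with another gene. The comparisons of fragments and of input coverage were not planned beforehand but count among the 7. Without them, the adjusted value of the other tests at 0.031 (fold, share by q and recurrence) would be above 0.05. Those differences thus pass 0.05 after adjustment only with the unplanned comparisons counted in.

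These differences depended on what intron-centred peaks were set against. Against the 777 peaks centred in internal exons, a comparison added after the data had been seen, the fold differed by 0.113 (exact p = 0.469), recurrence by −4.86 points (exact p = 0.469) and the share at q of 0.05 or less by 5.34 points in the other direction (exact p = 0.156). Fragments and input coverage were still lower in intron-centred peaks, by −4.75 and −0.698 (exact p = 0.031 each). Taking only peaks within the same intron against all other peaks, the fold differed by −0.016 (exact p = 0.969) and recurrence by −12.9 points (exact p = 0.281). Input coverage moved with each of these comparisons, and its part in them was not tested.

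**Figure D3:**
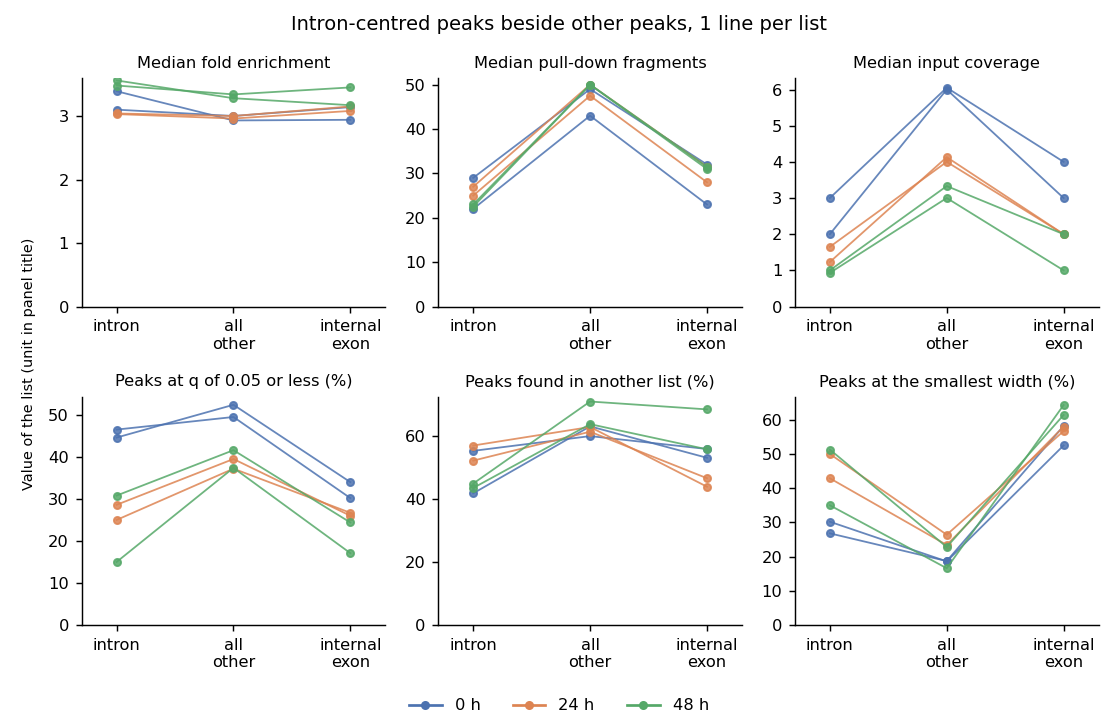
Median fold enrichment, pull-down fragments and input coverage, and the percentages of peaks at q of 0.05 or less, found in another list, and at the smallest width of the list, for intron-centred peaks, all other peaks and peaks centred in internal exons. Each line is 1 peak list, coloured by hour; fragments and input coverage are lowest for the intron-centred peaks in every list.

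**Figure D4:**
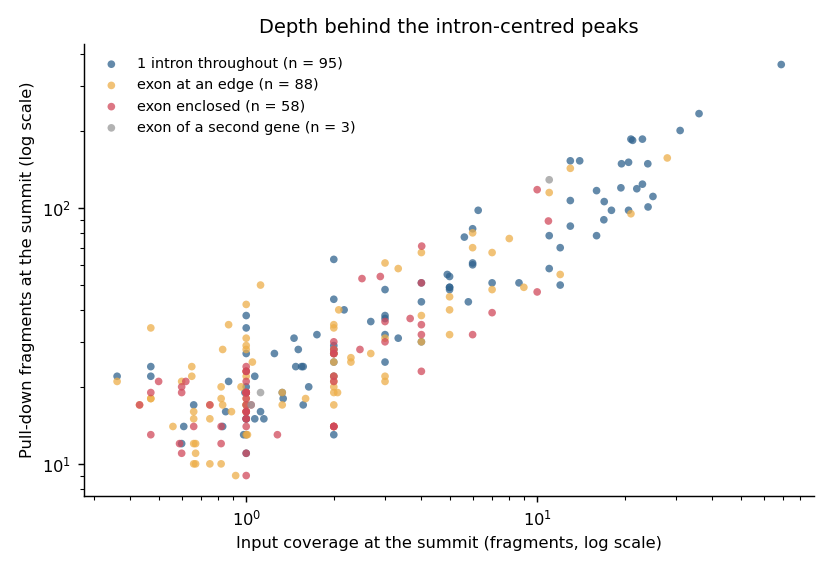
Pull-down fragments (y, log scale) against input coverage (x, log scale) at the summit of the 244 intron-centred peaks, coloured by layout. Peaks that enclose an exon gather at the low end, with a median of 19.5 fragments, and those within the same intron reach 364.

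Merging the intron-centred peaks of all lists where they overlapped by 1 base gave 183 regions. A list was counted as having a peak there when any of its peaks, whatever its place, overlapped the region. Of these, 122 (66.7%) had a peak in 1 list, 37 in 2 lists, 16 in 3, 4 in 4, 3 in 5 and 1 in all 6. Among all 2808 merged regions, 63.2% had a peak in 1 list and 8.4% in 4 or more, compared with 8 of the 183 (4.4%). The 2808 regions come from peaks of every place and the 183 from intron-centred peaks alone, so their borders can differ. Of the 61 regions found in more than 1 list, 38 were centred in an intron in each list that held them and 23 were centred in an exon or UTR in at least 1. The label of a recurring region could thus change with a shift of its borders. Of the 122 recurring intron-centred peaks, 107 overlapped an intron-centred peak of another list and 15 only peaks centred elsewhere.

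Lists of the same time shared on average 8.44% of the bases of their intron-centred peaks (Jaccard index) and lists of different times 5.66%, a difference of 2.78 percentage points (one-sided exact test over the 15 pairings, p = 0.067, the smallest it can give). The highest index, 13.01%, joined 0 h list 1 and 24 h list 1, and the 0 h lists shared 11.84%. The lowest, 0.0%, was that of 0 h list 2 and 48 h list 2.

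Hnrnpu, which encodes a nuclear RNA-binding scaffold protein, had the only region found in all 6 lists, in intron 9 at chr1:178158690-178158994. Its fold enrichment was 2.4 and 2.22 at 0 h, 3.08 and 3.69 at 24 h, then 2.47 and 2.59 at 48 h, with a −log10 p between 5.65 and 11.01. The peak was centred in the intron in 0 h list 1 and 24 h list 1 and in an exon in the other 4 lists, and an exon lay at its edge. The −log10 p was lowest in 48 h list 2.

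Gpnmb, which encodes a transmembrane glycoprotein of macrophages and pigment cells, had a peak that stayed within intron 4 in 5 lists, at chr6:49023052-49023452. Its fold reached 3.65 and 2.8 at 0 h, 2.19 and 2.35 at 24 h, then 3.06 in 48 h list 1, with −log10 p of 22.31, 11.46, 5.89, 7.51 and 10.43. The summit held 184, 120, 149, 151 and 153 pull-down fragments over an input coverage of 21.28, 19.4, 19.49, 20.61 and 14.0. It was not found in 48 h list 2, the shallowest. The Gpnmb peak was thus one of the best covered intron-centred peaks, and the folds at 24 h were below those at 0 h in both lists.

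The uncharacterised gene 4930430E12Rik had the longest intron-centred peak, 1140 bases in 24 h list 1, in its last intron at chr4:6352626-6353779. The fold was 2.64 and 2.46 at 0 h and 2.54 and 2.6 at 24 h, with 149, 124, 186 and 186 fragments, and no peak was found at 48 h. Its folds at 0 and 24 h overlapped. At matched input coverage the region was still present in both 0 h lists and in neither 48 h list.

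Ssb encodes the La protein, which binds the 3′ ends of RNA polymerase III transcripts, and it held 3 regions. In intron 10, at chr2:69700802-69701178, the fold was 1.93 in 0 h list 1, with a q of 1, and no peak was found in 0 h list 2. In the later lists it was 3.51 and 3.91 (24 h) and 4.72 and 3.68 (48 h), with −log10 q between 1.82 and 3.89. The 4 later lists were all above the 0 h value, and input coverage was 12.0 at 0 h against 6.0, 5.58, 3.0 and 4.0 later. Pull-down fragments were 55 at 0 h and 80, 75, 61 and 67 later, so the later lists had lower input coverage and more pull-down fragments. Relative input depth was lower in the 4 later lists too, and its part in this pattern was not tested.

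The other Ssb regions were in intron 5, at chr2:69697615-69697897, with a fold of 3.28 and 4.51 in the 24 h lists only, and in intron 3, at chr2:69696547-69696895. In intron 3 the fold was 2.58 and 5.77 at 24 h and 2.96 in 48 h list 2, with no peak at 0 h. The 24 h list 2 peak of intron 3 and that of intron 10 were centred in an exon. All 3 Ssb regions had an exon at an edge or enclosed.

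Ptms, Cdk11b, Anp32a and Ssrp1 held the other regions found in 4 or 5 lists. Ptms, which encodes the small acidic protein parathymosin, had in intron 2, at chr6:124891562-124891954, a fold of 5.11 in 0 h list 2 and 3.2 in 24 h list 1. In 0 h list 1 and 48 h list 1 the peak of this region was centred in an exon, at 1.88 and 2.12. The 0 h lists differed most, and the −log10 p of 23.11 in 0 h list 2 was the highest among intron-centred peaks. Cdk11b, a cyclin-dependent kinase linked to transcription and splicing, shared a region with Gm10563 at chr4:155724064-155724355, with a fold of 4.43, 5.65, 5.07 and 4.16 in both 0 h lists, 24 h list 1 and 48 h list 1, the second and the last of them centred in an exon. Anp32a, an acidic nuclear protein that inhibits protein phosphatase 2A, had a region in introns 4 and 5 at chr9:62281810-62282163, with a fold of 3.54, 2.61, 3.22 and 3.28 in both 0 h lists, 24 h list 2 and 48 h list 1. In these regions folds did not order by time.

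Both subunits of the histone chaperone FACT held a region. Ssrp1 had a peak in 5 lists in intron 14, at chr2:84875751-84876106, centred in the intron in 0 h list 2 only, with a fold of 2.93 and 2.82 at 0 h, 2.23 and 4.21 at 24 h and 2.66 in 48 h list 1. Supt16, the other subunit, had a peak at chr14:52414455-52414679 in both 0 h lists and in no later list, centred in intron 11 in 0 h list 1, at a fold of 2.82, and in an exon in 0 h list 2, at 2.91. The 24 h values of Ssrp1 lay on either side of the 0 h values.

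**Figure D5:**
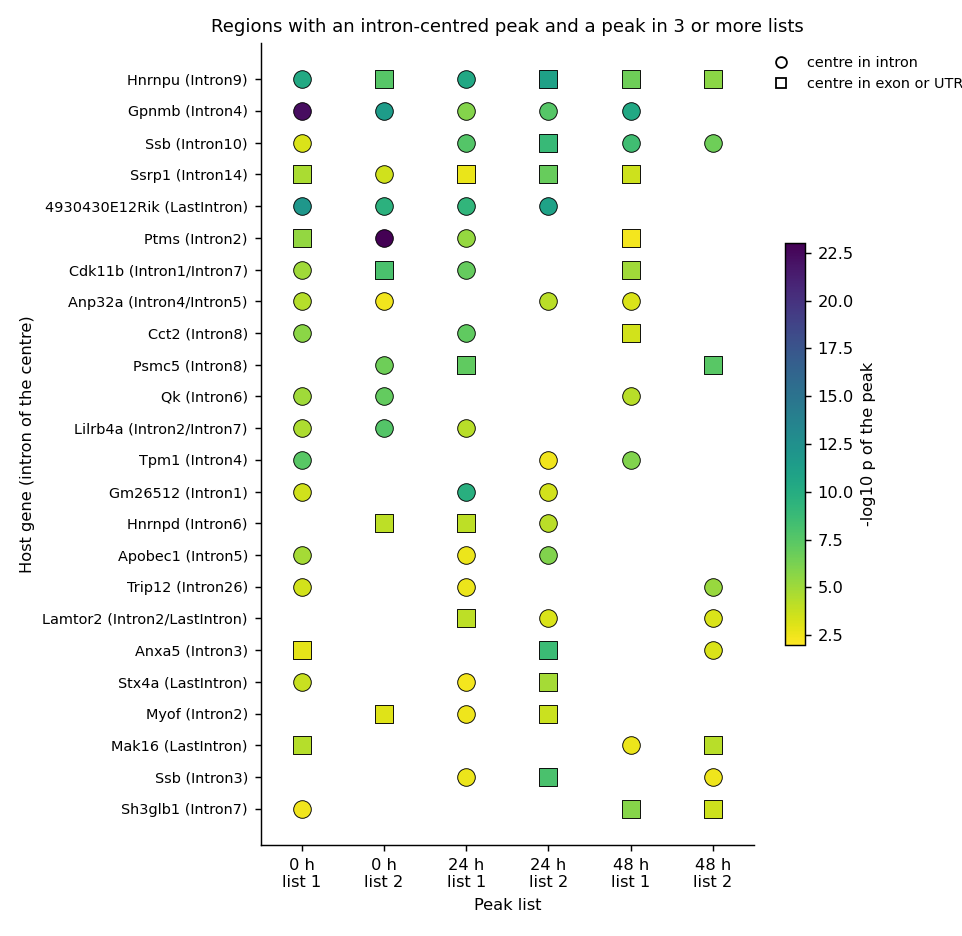
Regions with an intron-centred peak that had a peak in 3 or more lists (rows, host gene and intron of the centre) in the 6 peak lists (columns). Colour gives the authors' −log10 p, circles are peaks centred in the intron and squares peaks centred in an exon or UTR; Hnrnpu has a symbol in all 6 columns and Gpnmb 5 circles.

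A region was counted as lost when both 0 h lists had a peak and neither list of the later time did, and as gained in the reverse case. Of the 183 regions, 9 (4.92%) were lost at 24 h, where 7.3% of all merged regions were, and 10 (5.46%) at 48 h, where 6.87% were. At 24 h 4 regions (2.19%) were gained, beside 1.53% of all regions, and at 48 h 1 region (0.546%) was, beside 1.92%. A loss at both later times, with no peak in any of the 4 later lists, was found for 8 regions (4.37%, beside 4.99%), and a gain in all 4 later lists for none, beside 0.249%. These counts were small and the shares differed from the background by a few regions, and with 2 lists per time no region has a test of its own. With either 0 h list left out, so that the other stood for 0 h alone, 32 regions counted as lost at both later times. These were 32 of 156 regions without 0 h list 1 and 32 of 155 without 0 h list 2. The share of all merged regions at this setting is not given, so nothing particular to intron-centred regions can be read from it.

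Of the 8 regions lost at both later times, Tmem132d, Qk and Zeb2 were also lost at a q of 0.05 or less. Tmem132d, which encodes a single-pass membrane protein known mainly from the nervous system, had its peak in intron 4 at chr5:128032057-128032313. The fold was 2.78 and 2.99, the −log10 p 16.31 and 22.47, and the summits held 201 and 234 fragments over an input coverage of 31.0 and 36.0. It was among the best covered intron-centred peaks.

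Qk encodes Quaking, an RNA-binding regulator of splicing, and held 3 regions. That in the last intron, at chr17:10429269-10429743, was found in both 0 h lists, at a fold of 3.07 and 2.81 with 117 and 106 fragments, and in no later list. In intron 6, at chr17:10432463-10432859, the fold was 2.03 and 2.4 at 0 h and 2.7 in 48 h list 1, so that region was lost at 24 h only. The other last-intron region, at chr17:10430500-10430802, had folds of 1.93 (0 h list 2) and 1.99 (48 h list 1). All 3 Qk regions lay within an intron with no exon at either end, and none had a peak at 24 h.

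Zeb2 encodes a zinc-finger transcription factor that takes part in tissue macrophage identity. Its peak, in intron 3 at chr2:44988433-44988724, had a fold of 4.63 and 5.62 and a −log10 p of 6.32 and 9.04 at 0 h, with 24 and 28 fragments over an input coverage of 1.48 and 1.51. The signal was thus far thinner than in Tmem132d or Qk. The loss concerns this region and not the gene, since Zeb2 had an exon- or UTR-centred peak in all 6 lists. Another Zeb2 region in intron 3, at chr2:44965643-44965928, had a peak in 0 h list 1 only, at a fold of 4.68.

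The other losses had a weaker p. Stx4a, a plasma membrane SNARE protein, had a fold of 1.96 and 3.93 in intron 7, where the peaks enclosed an exon. The other intron-centred region of Stx4a had a peak in 24 h list 1, so the loss concerns the intron 7 region only. Ebna1bp2, a nucleolar protein of ribosome assembly, had 3.78, centred in the last exon, and 3.62 in the last intron. Mospd1 had 3.97 and 3.23 in its last intron, and the unnamed gene Gm43552 had 2.43 and 1.88. At matched input coverage the losses of Tmem132d, Qk, Zeb2, Ebna1bp2 and Mospd1 remained, 5 of the 8. Matching only removes peaks, so it could not bring back a later peak. The share of all merged regions at this setting is not given.

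The gains were shallow. At 24 h they were the Ssb regions in introns 5 and 3, Lamtor2 and Atp6v1h, and at 48 h the region was in Eif5b. Atp6v1h and Eif5b were named after their values were seen. Lamtor2, a subunit of the Ragulator complex on lysosomes, had a fold of 3.89, centred in an exon, and 3.47 at 24 h and 3.48 in 48 h list 2, each with a q of 1. Atp6v1h, a subunit of the vacuolar proton pump, had 4.48 in its last intron and 2.53, centred in the last exon, at 24 h. Eif5b, a GTPase of translation initiation, had 5.03 and 4.73 in intron 20 at 48 h, at chr1:38087960-38088418, with 28 and 21 fragments. The Ssb region in intron 10 was the only region gained in all 4 later lists when coverage was matched, and likewise among peaks with a q of at most 0.05. It counted as gained there only because both settings removed its 0 h list 1 peak, which had a fold of 1.93 and a q of 1. The share of all merged regions at these settings is not given.

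Some of the strongest intron-centred peaks came from 1 list. Galnt2l had a fold of 6.02 and a −log10 p of 21.15 in 0 h list 1, in intron 1 at chr8:123301409-123301651, with 98 fragments and no peak there in the other 5 lists. Its other regions, at chr8:120683446-120683859 and chr8:123610353-123610659, had 11 and 19 fragments, and the last of them also touched Ankrd11. Galnt2l was not matched in RefSeq, and its 3 regions lie far apart on the chromosome. Mmp12, the macrophage metalloelastase, had a fold of 3.24 and a −log10 p of 9.78 in intron 2 in 24 h list 2, at chr9:7349755-7350022. Pld3, a lysosomal exonuclease, had 4.06 and 12.41 in intron 5 in 0 h list 2, at chr7:27241186-27241415. The −log10 q was 15.76, 4.72 and 7.46 for these 3 peaks, and the other list of the same time had no peak at any of them. An exon lay at an edge of the Mmp12 and Pld3 peaks, while this Galnt2l peak stayed within the same intron.

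Arf4, Ctsk and Gm37401 held the intron-centred peak of smallest p in 24 h list 2, 48 h list 1 and 48 h list 2. Arf4, a small GTPase of the Golgi, had the highest fold of all, 8.27, in 24 h list 2 in intron 2, at chr14:26367812-26368176, and 2.48 in 48 h list 1, centred in an exon. An exon lay at an edge of the Arf4 peak in 24 h list 2, and Arf4 had an exon- or UTR-centred peak in all 6 lists. Ctsk, the lysosomal protease cathepsin K, had a peak in intron 1 at chr3:95407143-95407365, with a fold of 3.78 in 24 h list 1 and 6.49 in 48 h list 1, with 48 and 63 fragments, and none at 0 h. Gm37401 had 2.91 in its last intron in 48 h list 2, at chr9:108214644-108214897. The Ctsk peak was present in 1 list of each later time and missing from the other.

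The intron-centred peaks lay in 171 host genes. By RefSeq symbols, which matched 160 of them (93.6%), 150 were protein-coding, 9 were long noncoding RNA genes and 1 was a pseudogene. In 118 hosts the peaks came from 1 list, in 35 from 2, in 14 from 3, in 2 from 4 and in 2, Ssb and Gpnmb, from 5 lists. Of the hosts, 86 (50.3%) also had an exon- or UTR-centred peak in some list and 85 had none, and 56 of the 244 peaks (23%) had one in the same list. Peaks within the same intron had one in 14 of 95 cases (14.7%), those with an exon at an edge in 26 of 88 (29.5%) and those enclosing an exon in 16 of 58 (27.6%). By position, 24 peaks (9.8%) were in the first intron, 42 (17.2%) in the last and 172 (70.5%) in another one, and 6 differed between overlapping genes.

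No host was among the genes listed here for IFN-γ signalling, for NF-κB and inflammation or for macrophage receptors and identity. The lists are short, and hosts outside them were not counted. Zeb2 was one such host. Bst2 and Cd80 were others, named after their values were seen, with a fold of 3.77 in 48 h list 2 and 4.63 in 48 h list 1. Of 22 genes of IFN-γ signalling 5 had any peak (Ifngr2, Jak2, Irf1, Irf5 and Cd274), of 20 NF-κB and inflammatory genes 8, and of 18 macrophage receptor and identity genes 7, and none of these 3 lists had an intron-centred peak. Among all 2071 genes with any peak, 171 hosted an intron-centred one. At that share few or none would be found among so few genes, so nothing particular to these lists can be read from it. Of the ac4C writers and guides, 0 of 4 had a peak of any kind. Of 25 host genes of small nucleolar RNAs, whose introns release these RNAs on splicing, 9 had a peak and 2 an intron-centred one. Snhg6 had it in intron 1 at chr1:10012545-10012769, touching Snord87, with a fold of 3.44 and 12 fragments in 0 h list 1. Rps3, which encodes a ribosomal protein, had it in intron 2 at chr7:99131643-99131909, with 2.54 in 24 h list 2 and 2.76, centred in an exon, in 48 h list 1. The Snhg6 peak enclosed an exon, so Snord87 and the spliced exon were not separated. The intron-centred Rps3 peak also enclosed an exon, and no gene other than Rps3 was annotated at it.

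Another gene was touched by 18 of the 244 peaks (7.4%). They included Zfas1 with Gm25878, Msn with Gm24718, and a region in 3 overlapping genes, Lilrb4a, Gm49339 and Gm40645, of which Lilrb4a encodes an inhibitory receptor of myeloid cells. That region, at chr10:51371147-51371485, had a fold of 2.06 and 2.47 at 0 h and 2.67 in 24 h list 1 and none later. Without strand information on the peaks, the overlapping genes could not be told apart.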

How the data were processed

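ac4C pull-down RNA of 6 macrophage samples and total RNA of 6 were sequenced, and the authors deposited 6 peak lists, 2 per time, whose sample is not named. The aligner BWA 0.7.12, the peak caller MACS2 2.1.0 and the mouse build GRCm39 are listed, per the submitters' processing notes, without settings. Reads across a splice junction are not placed as such by BWA, which can thin signal next to exon ends. Lists were not pooled over a time. The library that served as control of a list is not stated and is named input here. Total RNA was not analysed here.

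Per the file headers, the deposited fold enrichment is a ratio of pull-down over background at a summit, and p and q are deposited as −log10 values. These are the authors' values, used to describe, rank or filter within a list. The smallest −log10 p of a list lay between 2.3 and 2.33. A −log10 q of 0 is written as a q of 1. Positions are as deposited in GRCm39, and their first base may be counted from 0 or from 1. Strand is not given for the peaks.

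Each peak, defined by chromosome, start and end, was valued at its summit of smallest p. Places at the start, centre and end are the authors' annotation, at gene level. Fragments and input coverage were recovered from fold and p: at each summit a whole number of pull-down fragments times 1 factor per list gave both values within 0.005 of −log10 p, for 100% of the summits of each list. The factor lay between 0.259 and 0.468. The lowest input coverage shared by 20 or more summits gave the relative input depth. For matched coverage, both were scaled to the shallowest list and summits still reaching a p of 0.005 were retained, which removes peaks and adds none.

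Lists were compared by exact permutation tests over lists, and places within a list by exact sign-flip tests over the 6 lists, in Python 3.11.15 with numpy 2.4.6, scipy 1.17.1 and pandas 2.3.3. The scripts passed 10 of 10 checks on simulated data. The comparisons of fragments and input coverage were added to those planned. Other settings tried were peaks with q at most 0.05, peaks with a fold of at least 4, matched coverage, each list left out, no overlap with another gene, the same intron throughout, a reciprocal overlap of 50%, log2 fold, and, added after seeing the data, internal exons as reference and presence by intron-centred peaks alone.

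The intron-centred peaks, gene lists and naming rule were chosen with earlier results of these data known. The rank of a region was its −log10 p as a percentile of each list, averaged over lists. Named were regions in 4 or more lists, losses or gains at both later times, the 3 highest found in 1 list only, the strongest peak of each list, hosts of 3 or more regions, and members of the gene lists, 33 regions in all. Base composition was not run and peak sequences are not shown, because no genome of the build was used here. Gene types are from RefSeq symbols of GRCm38.p6, without coordinates.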

Additional observations from a re-analysis of the deposited data

How the results depend on the processing

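Depth limits these results: the median intron-centred summit held 25 pull-down fragments over an input coverage of 2.0, so absence from a list can mean too few fragments. Of the differences between times, none of which passed a test, that in number from 24 to 48 h turned to 0.48 (log2) at a fold of 4 or more and to 0.12 at matched coverage. The share from 0 to 24 h turned to −0.817 points at a fold of 4 or more and −0.318 within the same intron. The share from 24 to 48 h turned to 0.165 at a fold of 4 or more. For both later times against 0 h it turned to −0.572 at q of 0.05 or less, −0.735 at a fold of 4 or more and −0.423 within the same intron. Leaving out lists gave −1.43 to 1.08 points from 0 to 48 h. Against other peaks, the fold difference missed the threshold at 0.366 (q of 0.05 or less), 0.177 (fold of 4 or more), 0.205 (no other gene) and 0.113 (internal exons), and was −0.016 within the same intron. The difference in the share at q of 0.05 or less was −10.6 points at a fold of 4 or more, −2.60 within the same intron and 5.34 against internal exons. Width turned to 0.333 bases at a fold of 4 or more, 14.6 within the same intron and 20.1 against internal exons. Recurrence missed the threshold at −10.9 (q of 0.05 or less), −3.67 (fold of 4 or more), −10.4 (matched coverage), −12.9 (same intron) and −4.86 (internal exons), and fragments at −9.25 (same intron). With 1 list left out, 5 lists cannot reach the threshold, and the differences ranged from 0.127 to 0.210 for fold, −12.8 to −8.95 for the q share, −18.3 to −10.4 for recurrence, −24.2 to −22.7 for fragments and −2.92 to −2.54 for input coverage. For the region counts that follow, the share of all merged regions at the same setting is not given. Regions lost at 24 h were 3 at q of 0.05 or less and 1 at a fold of 4 or more, and those lost at 48 h were 4 and 1. Regions gained at 24 h were 1 at q of 0.05 or less, 0 at a fold of 4 or more, 0 within the same intron and 1 by intron-centred presence. Those gained at 48 h were 2 at matched coverage and 0 within the same intron. Losses at both later times were 3 at q of 0.05 or less, 1 at a fold of 4 or more, 5 at matched coverage and 5 within the same intron, and gains at all later lists were 1 at q of 0.05 or less and 1 at matched coverage. With 1 list left out, so that 1 list stood for a time, the counts ranged from 9 to 37 (lost at 24 h), 10 to 44 (lost at 48 h), 4 to 32 (gained at 24 h), 1 to 34 (gained at 48 h), 8 to 32 (lost at both) and 0 to 2 (gained at all). The causes of these shifts were not tested, beyond the fewer peaks or lists each alternative keeps. The difference in number from 0 to 24 h was 0.0 without 0 h list 1, and that in width was 0.0 at q of 0.05 or less. Those 2 are among the other 161 of the 248 alternative values, in none of which a direction turned, a call crossed the threshold or a count moved by over 1.5 times. No paired analysis was possible because the lists name no sample and their numbers pair nothing. The alternatives for base composition were not run.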

Other observations

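The hosts of intron-centred peaks included genes of RNA processing, by gene annotation terms in the authors' deposited tables that were chosen after the hosts had been seen. RNA binding was annotated for 21 of the 171 hosts (12.3%) and for 9.1% of the 2071 genes with any peak, and RNA splicing for 10 hosts (5.8%) and 3.7% of all. The splicing hosts included Hnrnpm, Sfpq, Srsf10, Son and Ddx39b besides Hnrnpu and Qk. The broad terms nucleus (47.4%, against 41.4%) and cytoplasm (49.7%, against 43.2%) were also more frequent among hosts, so a higher share was not particular to RNA processing. Mitochondrial genes were 16 of the hosts (9.4%, against 10.1%) and lysosomal genes 5 (2.9%, against 3.0%), among them Ctsk, Pld3 and Lamtor2. No test was made of these shares.

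The proteasome complex was annotated for 7 hosts (4.1%) and for 24 of all 2071 genes (1.2%). Psmc5, an ATPase of the regulatory particle, had a fold of 3.76 in 0 h list 2 in intron 8, and 4.2 in 24 h list 1 and 5.48 in 48 h list 2, both centred in an exon. The peaks of Psmb4, Psmb7, Psmc6, Psmd1, Psmd14 and Psme3 came from 1 list each, and only that of Psmc6, at 5.13, was at a q of 0.05 or less. All 7 peaks reached or enclosed an exon, and the summits held 10 to 38 fragments.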
